A study of Mus musculus with 25 samples.

Results

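The 10 glutathione S-transferase genes described here (Gsta2, Gsta3 and Gsta4 of the alpha class, Gstm1, Gstm2, Gstm3 and Gstm6 of the mu class, Gstp1 of the pi class, and Gstt1 and Gstt3 of the theta class) were measured in 25 mouse liver and liver tumor libraries. They were chosen by symbol, each symbol was matched to its Ensembl gene, and they are 10 of the 48795 genes in the count tables. All 10 passed the filter on low counts that left 15625 genes for testing. RNA-seq was done on male C57BL/6J mice in 5 groups, which tested how a tumor-promoting diet and a carcinogen change liver metabolism. The groups were nonDEN-L-CD (liver of uninjected mice on control diet, 3 libraries), nonDEN-L-WD (uninjected, western-style diet, 4), DEN-L-CD (diethylnitrosamine, control diet, 4), DEN-PT-WD (tissue beside tumors after diethylnitrosamine and western diet, 8) and DEN-T-WD (tumors of such mice, 6). Diethylnitrosamine (DEN), a carcinogen that liver enzymes activate, was injected once at 25 mg/kg at an age of 2 weeks, the diets began at weaning, and tissue was taken at 36 weeks, up to 39 weeks in some mice. Tumors of DEN-L-CD mice were too small to be cut away, so that group may hold some tumor tissue. Tumors were collected on the western diet alone, so tumor and diet effects cannot be separated in comparisons with control-diet mice. The sources used here do not say which tumor and peritumoral libraries shared a mouse.

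Glutathione S-transferases join the tripeptide glutathione to reactive, electron-poor compounds, which makes them soluble enough to be pumped out of the cell and processed to mercapturic acids. Liver cells hold large amounts of the cytosolic alpha, mu, pi and theta enzymes, and these act on carcinogen metabolites, drugs and the aldehydes that arise from oxidised lipids. Several of the genes carry antioxidant response elements, which the transcription factor NRF2 binds when its inhibitor KEAP1 is inactivated, and others respond to the nuclear receptors CAR and PXR. In mice, Gstp1 is a male-biased liver gene.

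The genes lie in clusters of near copies, which limits how far reads can be assigned to each. On GRCm38 with GENCODE M21 annotation, the 4 mu genes sit on 1 strand of chr3, from Gstm6 (chr3:107938847-107943749) through Gstm3 (chr3:107963696-107969283) and Gstm2 (chr3:107981702-107986453) to Gstm1 (chr3:108012255-108017973). Gsta4 (chr9:78182774-78209349) and Gsta2 (chr9:78331018-78355788) share a chromosome, whereas Gsta3 (chr1:21240589-21265661) stands alone. Gstp1 lies at chr19:4035407-4037985, and Gstt3 (chr10:75774115-75781414) and Gstt1 (chr10:75783813-75798584) are neighbors. Of the 50-base words in their transcripts, 49.8% for Gsta2 and 33.7% for Gstp1 also occurred in other genes. Gsta1, Gm10639 and Gm3776 each held at least 20% of the Gsta2 words, and Gstp2 and the pseudogene Gstp-ps held that share of Gstp1. The shared portion was 28.8% for Gstm3, 18.9% for Gstm1, 12.5% for Gstt3 and 5.97% or less for the others. Counts of Gsta2, Gstp1, Gstm1, Gstm3 and Gstt3 are therefore uncertain to the extent that reads were divided between copies. The first 60 coding bases of the mu genes are shown to make visible how little separates them, with capitals where a base differs from Gstm1, written 5′ to 3′:
Gstm1: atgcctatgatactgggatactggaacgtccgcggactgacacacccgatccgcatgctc
Gstm2: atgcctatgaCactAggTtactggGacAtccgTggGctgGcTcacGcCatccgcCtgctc
Gstm3: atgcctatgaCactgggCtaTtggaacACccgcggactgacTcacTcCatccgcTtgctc
Gstm6: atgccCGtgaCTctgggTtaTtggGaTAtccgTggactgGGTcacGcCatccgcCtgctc

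Over these bases Gstm3 differed from Gstm1 at 9 positions, Gstm2 at 12 and Gstm6 at 16. Over the whole coding sequence Gstm1 was 89.4% identical to Gstm3 and 85.9% to Gstm2, and Gstt1 was 75.4% identical to Gstt3. The alpha and pi copies are closer. In the same stretch of Gsta2 and Gstp1, shown because these are the most shared members, capitals mark where the copy differs from the member:
Gsta2: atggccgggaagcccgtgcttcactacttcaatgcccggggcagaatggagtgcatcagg
Gsta1: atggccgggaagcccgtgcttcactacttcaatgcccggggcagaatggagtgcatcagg
Gstp1: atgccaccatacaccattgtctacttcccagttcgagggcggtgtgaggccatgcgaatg
Gstp2: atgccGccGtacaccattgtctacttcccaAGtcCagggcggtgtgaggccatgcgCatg

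Gsta2 and Gsta1 had no difference in this window and 97.6% identity over the coding sequence, and Gstp1 and Gstp2 had 98.1%. Gsta3, by contrast, was only 75.3% identical to Gsta2, and 0.273% of its words were shared.

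Libraries held 21530083 to 38074411 expected counts, and no pair of replicates agreed within sampling noise. Marker genes of hepatocytes were present in every library. One tumor library stood apart. In DEN-T-WD replicate 5, 12.5% of tested genes were at least 2-fold from the median of the other 5 tumors, against 3.51% to 4.28% for each of those. Among peritumoral libraries that share ran from 3.59% to 7.18%, with replicate 7 at 7.18% and replicate 6 level with it at 6.96%. Replicate 7 is marked in the plots because it was the lowest peritumoral library for 8 of 10 members and the highest for Gstp1. Results that rest on tumor replicate 5 are given with and without it, a choice made after seeing the data. Because a single model shared the spread over all groups, leaving it out also narrowed the errors in comparisons that hold no tumor.

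Levels were compared between genes as TPM values, which are scaled by transcript length. Averaged over the 5 group medians, Gsta3 (1476 TPM), Gstp1 (1365 TPM) and Gstm1 (1296 TPM) led, and Gstt1 followed at 218 TPM. The remaining 6 genes lay at or under 73.1 TPM (Gstm6), with Gstt3 the lowest. The leading gene differed between groups. In nonDEN-L-CD the Gstp1 median was 2110 TPM, against 1043 TPM for Gsta3 and 679 TPM for Gstm1. In DEN-PT-WD the order was Gstm1 at 1908 TPM, Gsta3 at 1746 TPM and Gstp1 at 977 TPM.

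Gstp1 made up 49.8% ± 3.21 (SD, n = 3) of the summed TPM of the 10 members in nonDEN-L-CD, 24.9% ± 4.07 (n = 4) in nonDEN-L-WD, 33.0% ± 4.87 (n = 4) in DEN-L-CD, 20.9% ± 7.98 (n = 8) in DEN-PT-WD and 23.0% ± 5.71 (n = 6) in DEN-T-WD. Gstm1 made up 17.2%, 24.9%, 19.4%, 34.2% and 40.9% of the sum in the same order of groups, and 37.6% in tumors without replicate 5. The sum itself moved less, with group means from 4376 TPM (SD 520, n = 3) in nonDEN-L-CD to 5331 TPM (SD 655, n = 8) in DEN-PT-WD. The tumor mean of 6265 TPM was set by replicate 5 at 16893 TPM, and the other 5 tumors averaged 4140 TPM (SD 830).

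**Figure D1:**
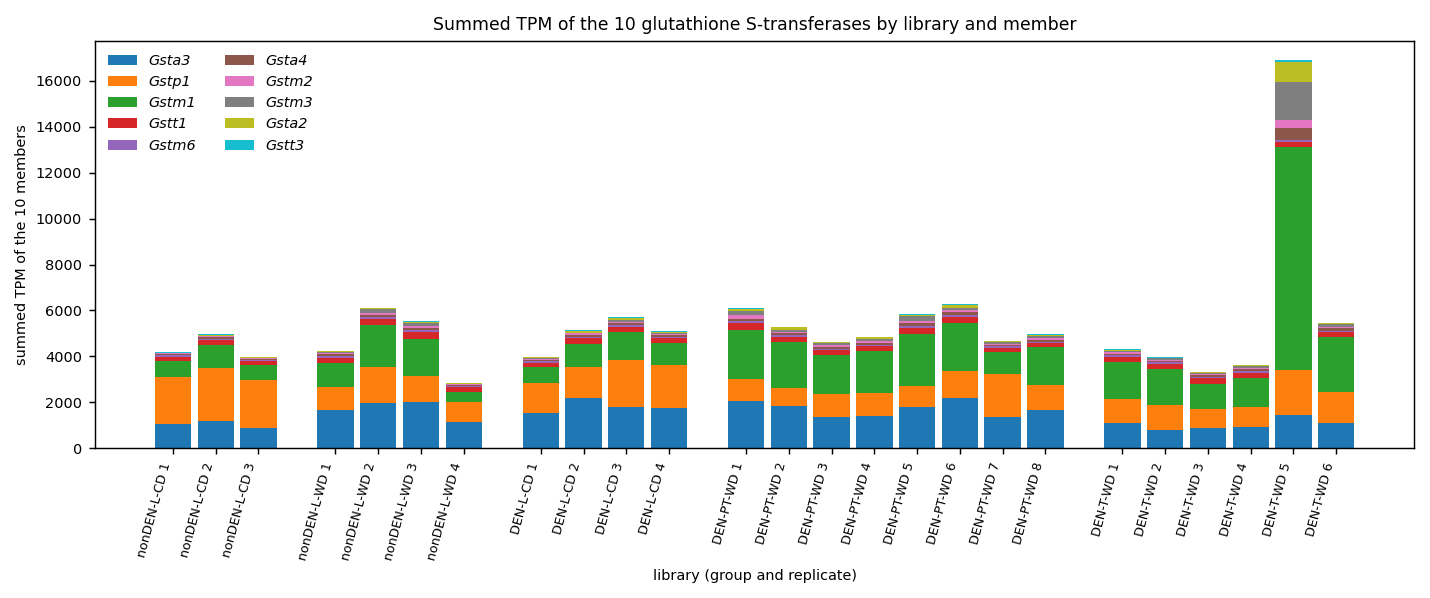
Stacked bars give the TPM of each of the 10 members in each of the 25 libraries, ordered by group and replicate. All other bars end between 2841 and 6273 TPM, the Gstp1 segment is the widest in nonDEN-L-CD, and tumor replicate 5 reaches 16893 TPM, mostly Gstm1.

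For tests, counts were scaled between libraries by the trimmed mean of M-values (TMM) and are called normalized counts below. A member was called when edgeR's quasi-likelihood test gave a Benjamini-Hochberg adjusted p of at most 0.05 over all tested genes and the log2 fold change was 1 or more in size, and passing the adjusted p alone is given separately. On the TPM scale the median gene lay 0.04 to 0.41 higher (log2) than on the TMM scale, depending on the comparison, so changes are stated relative to the TMM scale. The labels do not say whether libraries came from separate animals, so p-values measure the spread between these samples. In bulk tissue, fewer cells of a type and less RNA per cell cannot be told apart.

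**Figure D2:**
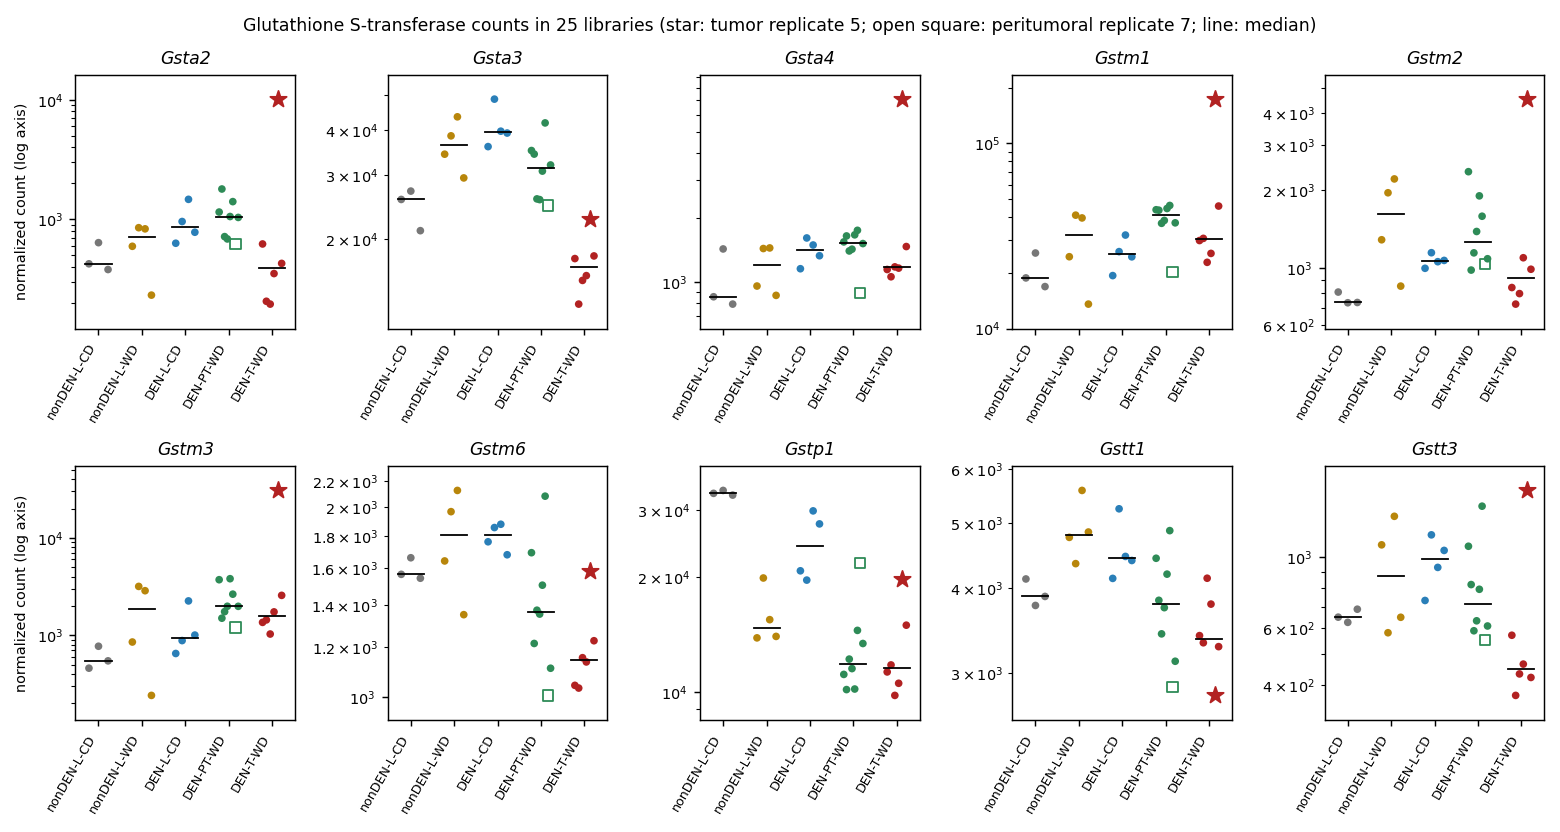
Each panel shows the normalized counts (log axis) of 1 member in the 25 libraries by group, with points for libraries and a line for the group median. Tumor replicate 5 (star) lies above all other tumors for 9 of 10 members, and peritumoral replicate 7 (open square) is the highest peritumoral library for Gstp1 and the lowest for 8 others, all but Gstm2.

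Gstp1, whose enzyme conjugates small electrophiles and is the pi-class form of male mouse liver, was lower on the western diet than on the control diet in uninjected mice. Its normalized counts were 33238, 33829 and 32888 in nonDEN-L-CD, whereas nonDEN-L-WD gave 13874, 19925, 15488 and 13996. The groups did not overlap, and the log2 fold change was −1.07 ± 0.24 (SE, edgeR adjusted p = 0.0031). On the log2(TPM + 1) scale with limma it was −0.97 (adjusted p = 0.017), short of the fold threshold. It was the single member called by edgeR in this comparison, in which 5.28% of tested genes were called and 2.04% were called lower. With Gsta3 it made 2 members that passed the adjusted p alone, as 23.2% of tested genes did. In DEN-L-CD the counts were 20810, 19672, 29895 and 27633, all under the nonDEN-L-CD libraries, but the log2 difference of −0.44 ± 0.24 did not pass (edgeR adjusted p = 0.20).

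In DEN-PT-WD Gstp1 ran from 10148 to 21854, with a median of 11862, and it fell against DEN-L-CD by 0.90 on the log2 scale (SE 0.19, edgeR adjusted p = 0.0058). The highest value was peritumoral replicate 7, and without that library the member was called lower. In the tumors Gstp1 ran from 9797 to 19787 with a median of 11535, which overlapped the peritumoral range. The tumor minus peritumoral log2 difference was −0.01 ± 0.17 (edgeR adjusted p = 0.97), and −0.17 ± 0.16 without tumor replicate 5. Against nonDEN-L-CD the tumors were lower without overlap (log2 fold change −1.35 ± 0.22, edgeR adjusted p = 2.1e-05), and −1.51 without replicate 5. With limma on log2(TPM + 1) that difference was −0.92 (adjusted p = 0.0029) and was not called.

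Gstp2, the near copy of Gstp1, was read beside it, and the difference between the genes was not tested. On the western diet in uninjected mice its mean normalized count was 55.1, against 236 on the control diet, without overlap, and the log2 difference of −2.09 did not pass (edgeR adjusted p = 0.062, and 0.021 with tumor replicate 5 left out of the fit). It was higher in peritumoral tissue compared with nonDEN-L-WD (log2 fold change 2.52, edgeR adjusted p = 0.024). It was also higher in tumors than in peritumoral tissue (log2 fold change 2.24, edgeR adjusted p = 0.0015, and 1.41 without replicate 5, adjusted p = 0.011). Because 33.7% of the Gstp1 words also occur in Gstp2, division of reads between them affects both genes.

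Gsta3, an alpha-class enzyme known for conjugating the aflatoxin epoxide in mice, rose with either single exposure and fell in tumors. Its normalized counts were 25752, 27158 and 21117 in nonDEN-L-CD. They were 34339, 38584, 43546 and 29530 after the western diet and 36033, 48729, 39744 and 39280 after DEN on the control diet. Both the diet and the carcinogen group lay above the untreated group without overlap. The same held for Gstm2 and Gstt1 in both groups and for Gstm6 and Gstt3 in the carcinogen group, though these did not pass by edgeR with all libraries. The share of all genes without overlap was not counted. For Gsta3 the log2 fold changes were 0.56 ± 0.19 for the diet (edgeR adjusted p = 0.031) and 0.73 ± 0.19 for DEN (adjusted p = 0.0075), both short of the fold threshold. The diet difference did not pass in 5 of 25 leave-one-out fits, those without nonDEN-L-CD replicate 1, 2 or 3 or nonDEN-L-WD replicate 2 or 3 (highest adjusted p = 0.14). For DEN on the control diet, 4.7% of tested genes were called and 21.3% passed the adjusted p alone, and no member was called by edgeR. DESeq2 called none either, but it gave no adjusted p for Gsta2 (log2 fold change 1.00), so it could not call that member. With only these groups in the edgeR fit, Gsta2 (0.99, adjusted p = 0.044), Gstm2 (0.49, adjusted p = 0.0040) and Gstt3 (0.56, adjusted p = 0.028) passed beside Gsta3. The share of all tested genes passing the adjusted p in that fit was not counted.

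The diet difference was lower in injected than in uninjected mice. The interaction of DEN with diet, the diet difference in injected mice minus that in uninjected mice, was −0.95 ± 0.24 (log2) for Gsta3 (edgeR adjusted p = 0.015), among 8.39% of tested genes that passed the adjusted p alone and 2.75% that were called. Peritumoral tissue stands in for injected liver on the western diet in this contrast, so tissue type cannot be told apart from the interaction. On the log2(TPM + 1) scale with limma it was −0.77 (adjusted p = 0.084), and without nonDEN-L-CD replicate 3 it was −0.85 (adjusted p = 0.062). With tumor replicate 5 left out of the edgeR fit, Gstt1 also passed as lower. Its interaction ran from −0.63 to −0.50 when 1 library at a time was left out.

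In DEN-PT-WD Gsta3 ran from 24776 to 41891 with a median of 31450. In the tumors it ran from 13240 to 22810 with a median of 16776, so that every tumor, replicate 5 included, lay under every peritumoral library. The tumor minus peritumoral log2 fold change was −0.87 ± 0.13 (edgeR adjusted p = 2.7e-05), and −0.97 ± 0.13 without replicate 5 (adjusted p = 4.4e-06). In that comparison 7.9% of tested genes were called and 37.7% passed the adjusted p alone, 18.1% as lower, and Gsta3 was the 1 member of 10 that passed by edgeR. Against nonDEN-L-WD it was called lower in tumors (log2 fold change −1.09 ± 0.15, edgeR adjusted p = 5.1e-06), where 15.7% of tested genes were called and 5.24% were called lower. It still passed but fell short of the fold threshold on the log2(TPM + 1) scale with limma (−0.71, adjusted p = 0.0021) and without nonDEN-L-WD replicate 3 (−0.99). Gsta3, Gstm6 and Gstt1 were the 3 members that passed edgeR's adjusted p alone there, all lower, as did 49% of tested genes, 23.1% as lower. Against nonDEN-L-CD the difference of −0.52 ± 0.17 passed the adjusted p (0.011), although it was −0.02 on the log2(TPM + 1) scale and did not pass without nonDEN-L-CD replicate 2 (−0.45, adjusted p = 0.061).

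Gsta2, an alpha-class enzyme with broad activity toward peroxides and electrophiles, showed how far 1 library can turn a group. In DEN-PT-WD it ran from 622 to 1794 with a median of 1047. In the tumors it was 622, 206, 195, 352, 10137 and 428 for replicates 1 to 6. With all 6 tumors the tumor minus peritumoral log2 difference was 0.91 ± 0.67 (edgeR adjusted p = 0.30), and without replicate 5 it was −1.56 ± 0.34 (adjusted p = 0.00085). Of the other 5 tumors, 4 lay under every peritumoral library, and tumor replicate 1 lay level with the lowest of them. With counts of its copies added, the difference was 1.92 (adjusted p = 0.032) with all libraries and −0.59 (adjusted p = 0.19) without tumor replicate 5.

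Gsta4, which conjugates 4-hydroxynonenal from oxidised lipids, stayed within a narrow band outside tumor replicate 5. Its counts were 859, 1430 and 794 in nonDEN-L-CD and 1149, 1063, 1181, 1166, 7082 and 1468 in the tumors. By edgeR no comparison passed for Gsta4 with all libraries. With limma on log2(TPM + 1) the tumors were called higher than nonDEN-L-CD (1.17, adjusted p = 0.021), where edgeR gave 1.09 (adjusted p = 0.056). Without replicate 5 the tumor minus peritumoral log2 difference was −0.29 ± 0.16 (edgeR adjusted p = 0.15), against 0.56 ± 0.34 with it (adjusted p = 0.21).

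**Figure D3:**
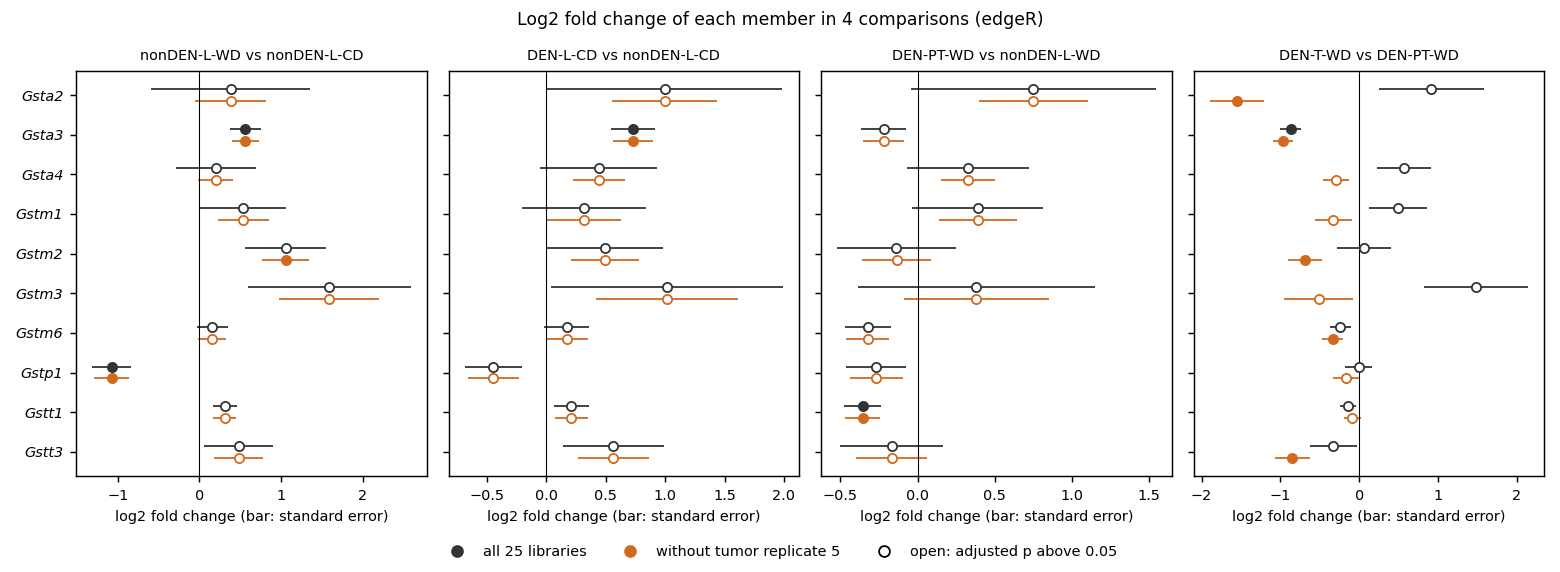
Points show each member's log2 fold change with its standard error in 4 comparisons, in black for all 25 libraries and in orange without tumor replicate 5, and filled points have an adjusted p of at most 0.05. In the tumor comparison the points of Gsta2, Gsta4, Gstm1, Gstm2 and Gstm3 lie right of 0 in black and left of 0 in orange, whereas Gsta3 lies left of 0 in both.

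Gstm1, the most abundant mu-class enzyme here, had its lowest group median in uninjected control-diet liver and its highest in peritumoral tissue. Its counts were 18771, 25591 and 16851 in nonDEN-L-CD, while nonDEN-L-WD gave 24438, 40995, 39597 and 13551. The western-diet group thus spanned the control range, and the log2 difference was 0.54 ± 0.53 (edgeR adjusted p = 0.50). In DEN-PT-WD it ran from 20178 to 46250 with a median of 40990, with replicate 7 lowest and the other 7 libraries at 37035 or more. In the tumors it was 29891, 30707, 22794, 25469, 173699 and 45910. The tumor minus peritumoral log2 difference was 0.49 ± 0.37 (edgeR adjusted p = 0.31) with replicate 5 and −0.33 ± 0.23 (adjusted p = 0.28) without it.

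Against nonDEN-L-CD the tumors were called higher for Gstm1 (log2 fold change 1.42 ± 0.52, edgeR adjusted p = 0.023). Without tumor replicate 5 the difference was 0.60 ± 0.30 (adjusted p = 0.094) and was no longer called. It also did not pass without nonDEN-L-CD replicate 1 (1.34, adjusted p = 0.079) or 3 (1.30, adjusted p = 0.088), or with only the groups compared in the fit (1.43, adjusted p = 0.11). With replicate number in the model it was 0.78 (edgeR adjusted p = 0.11). In that comparison 20.3% of tested genes were called, 14.5% higher and 5.82% lower, beside 2 members higher (Gstm1 and Gstm3) and 1 lower (Gstp1). By the adjusted p alone 54% of tested genes passed, beside 5 members. Without replicate 5, 13.8% of tested genes were called higher, beside 1 member (Gstm3), and 19.8% were called in either direction.

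Gstm3 had the widest range of the members. Its counts were 459, 770 and 545 in nonDEN-L-CD, while nonDEN-L-WD gave 852, 3174, 2867 and 241, so that replicates 1, 2 and 3 of the diet group lay above the control group and replicate 4 lay under it. In the tumors it was 1355, 1437, 1029, 1737, 30748 and 2568, all above the nonDEN-L-CD libraries. The tumor minus nonDEN-L-CD log2 fold change was 3.45 ± 1.06 (edgeR adjusted p = 0.0084), and 1.46 ± 0.59 without replicate 5 (adjusted p = 0.040), still called. It did not pass with only the groups compared in the fit (3.47, adjusted p = 0.056), nor with replicate number in the model. The diet difference in uninjected mice was 1.59 ± 1.00 (adjusted p = 0.26).

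Gstm2, a further mu-class enzyme, was higher in all 4 nonDEN-L-WD libraries (1287, 1959, 2217 and 851) than in the 3 nonDEN-L-CD libraries (807, 734 and 735). The log2 difference of 1.06 ± 0.50 did not pass with all libraries in the fit (edgeR adjusted p = 0.13). With tumor replicate 5 left out of the fit the same difference had an SE of 0.29 and an adjusted p of 0.0091, and it was called, beside 3.6% of tested genes called higher and 5.74% called in either direction in that fit. The tumors gave 840, 725, 796, 1097, 4521 and 990. Without replicate 5 they were lower than peritumoral tissue (log2 fold change −0.69 ± 0.21, adjusted p = 0.012) and than nonDEN-L-WD (−0.83, adjusted p = 0.0073), whereas with it the differences were 0.06 and −0.08.

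Gstm6, also of the mu class, was lower in tumors than in either uninjected group. It ran from 1006 to 2082 in DEN-PT-WD and from 1033 to 1582 in the tumors, with replicate 5 highest. Against nonDEN-L-WD it fell in tumors by 0.57 on the log2 scale (SE 0.16, edgeR adjusted p = 0.005), and by 0.66 without replicate 5, where the ranges did not overlap. On the log2(TPM + 1) scale with limma that difference was −0.19 (adjusted p = 0.39). The difference from nonDEN-L-CD was −0.41 ± 0.17 (adjusted p = 0.049), which did not pass in 18 of 25 leave-one-out fits and was 0.07 on the log2(TPM + 1) scale.

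Gstt1, a theta-class enzyme that acts on small halogenated compounds, had the narrowest range and was the 1 member for which tumor replicate 5 was not the highest tumor. Its counts were 4758, 4352, 5580 and 4845 in nonDEN-L-WD and 3409, 3327, 4142, 3794, 2783 and 3284 in the tumors, without overlap. The fall in tumors was 0.50 on the log2 scale (SE 0.12, edgeR adjusted p = 0.0021), and 0.44 without replicate 5, though it was −0.15 on the log2(TPM + 1) scale and did not pass there. Peritumoral tissue ran from 2863 to 4868 and was lower than nonDEN-L-WD by 0.36 (log2, SE 0.12), with an edgeR adjusted p of 0.048 that went above 0.05 in 17 of 25 leave-one-out fits. The difference was −0.14 (adjusted p = 0.41) on the log2(TPM + 1) scale with limma, and −0.25 (edgeR adjusted p = 0.21) with replicate number in the model. In that comparison 2.76% of tested genes were called and 12.4% passed the adjusted p alone, and no member was called by edgeR.

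Gstt3, its neighbor, gave 571, 371, 433, 465, 1611 and 422 in the tumors and 554 to 1439 in peritumoral tissue. Leaving out replicate 5 moved the tumor minus peritumoral log2 difference from −0.33 ± 0.30 (edgeR adjusted p = 0.41) to −0.85 ± 0.23 (adjusted p = 0.0044). Against nonDEN-L-WD the difference without replicate 5 was −1.02 ± 0.26 (adjusted p = 0.0023), and those ranges did not overlap. With that library left out, Gsta3 and Gstt3 were called lower in this comparison, beside 5.67% of tested genes.

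Counted over the members, tumors against peritumoral tissue gave 0 higher and 1 lower by the adjusted p with all libraries, and 0 higher and 5 lower without replicate 5 (Gsta2, Gsta3, Gstm2, Gstm6 and Gstt3). Over all tested genes 20.4% passed as lower without replicate 5. The median log2 difference of the 10 members was 0.02 with it and −0.43 without it, against 0.01 and −0.01 over all tested genes. In DEN-PT-WD against DEN-L-CD, where 1.9% of tested genes were called and 10.6% passed the adjusted p alone, Gstp1 was the 1 member that passed edgeR's adjusted p. With DESeq2, Gsta3 passed as well (−0.40, adjusted p = 0.044).

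In tumor replicate 5, 9 of 10 members were the highest of the 6 tumors, against 30.4% of tested genes. Their log2 ratios to the median of the other 5 tumors were 4.84 for Gsta2, 4.42 for Gstm3, 2.60 for Gsta4, 2.54 for Gstm1, 2.43 for Gstm2 and 1.89 for Gstt3. They were 0.81 for Gstp1, 0.52 for Gsta3, 0.48 for Gstm6 and −0.29 for Gstt1. At least 2-fold higher were 6 of 10 members, against 5.94% of all tested genes. These ratios describe 1 library and have no replicate.

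Genes around the pathway also stood out in this library, and those named were chosen after their values were seen. Of the 15 tested other glutathione S-transferases 7 were at least 2-fold higher and none 2-fold lower, led by Gsta1 (log2 ratio 5.00) and Mgst2 (3.95). Of 15 genes of glutathione supply 8 were at least 2-fold higher, among them the cystine transporter subunit Slc7a11 (5.16) and Gclc (2.33), the catalytic subunit of the enzyme that starts glutathione synthesis. Of 13 genes of conjugate export and mercapturate formation 5 were at least 2-fold higher and 1, the peptidase gene Anpep (−1.28), at least 2-fold lower, with a list median of 0.35. Ggt1, which breaks down glutathione conjugates outside the cell, had a log2 ratio of 8.67, and the exporter Abcc4 had 4.36. Of 10 NRF2-inducible genes and regulators 5 were at least 2-fold higher, including Ugdh (3.01) and Nqo1 (2.82), while the message of Nfe2l2, which encodes NRF2, was at −0.47 and that of Keap1 at −0.52.

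**Figure D4:**
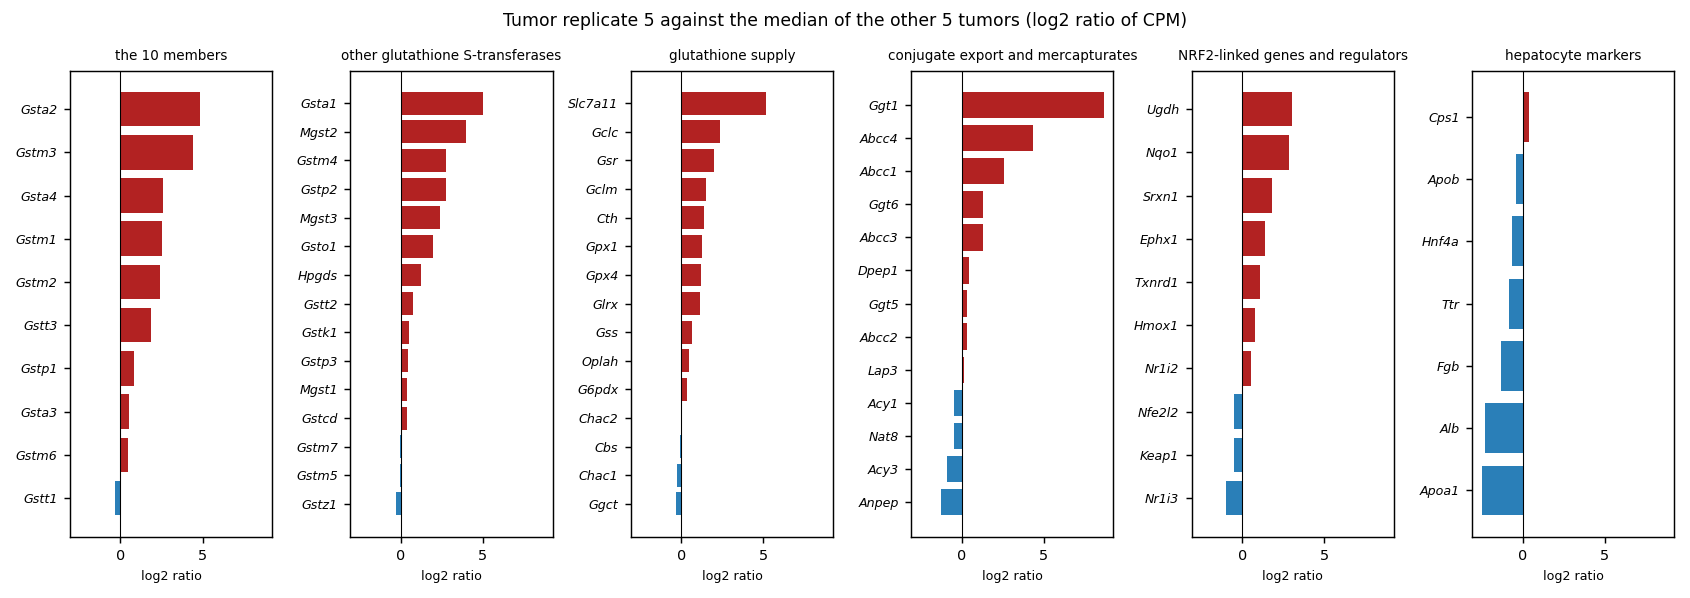
Horizontal bars give the log2 ratio of tumor replicate 5 to the median of the other 5 tumors for the 10 members, 4 lists of related genes and hepatocyte markers. Ggt1 has the longest bar at 8.67, Gsta2 leads the members at 4.84, and the hepatocyte markers Alb and Apoa1 lie at −2.26 and −2.50.

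Markers of other cell types were read beside these values. The 7 hepatocyte markers summed to 31729 TPM in tumor replicate 5, of which Alb made 21879 TPM, against a tumor median of 116981 TPM, a range of 60532 to 65211 TPM in nonDEN-L-CD and 38561 TPM in peritumoral replicate 7, the lowest of its group. Single markers in replicate 5 had log2 ratios to the other tumors from −2.50 (Apoa1) and −2.26 (Alb) through −0.62 (Hnf4a) and −0.42 (Apob) to 0.39 (Cps1). The 6 macrophage markers reached their highest tumor sum there, at 549.6 TPM against a median of 350.5 TPM. The 6 cholangiocyte markers summed to 384.9 to 833.6 TPM in tumors and 32.4 to 39.8 TPM in nonDEN-L-CD, mostly from Spp1, while Krt19 stayed at or under 6.99 TPM in every library. The 10 acinar pancreas markers varied from 9.62 to 6954 TPM between peritumoral libraries. In peritumoral tissue against DEN-L-CD, Gstp1 fell and 10.6% of tested genes passed edgeR's adjusted p alone. There 3 of 6 macrophage, 4 of 5 endothelial, 3 of 6 stellate and 1 of 6 cholangiocyte markers passed as higher. The 7 hepatocyte markers had negative log2 differences there (median −0.52), with 0 passing. In peritumoral tissue against nonDEN-L-WD, 12.4% of tested genes passed the adjusted p alone. Passing as higher were 2 of 6 macrophage, 3 of 5 endothelial, 2 of 6 stellate, 1 of 6 cholangiocyte and 1 of 6 lymphocyte markers. The 7 hepatocyte markers had negative log2 differences (median −0.26), with 0 passing. Between tumors and peritumoral tissue, 37.7% of tested genes passed the adjusted p alone. Of the markers, 2 of 7 hepatocyte ones were higher and 1 lower, and 2 of 6 macrophage ones were lower. Also 2 of 6 cholangiocyte and 1 of 5 endothelial markers were higher, and 3 of 6 stellate markers were higher and 3 lower. For the western diet in uninjected mice, where 23.2% of tested genes passed, 2 of 7 hepatocyte, 1 of 6 cholangiocyte and 1 of 5 endothelial markers were lower. There 2 of 6 stellate markers were higher. In tumors against nonDEN-L-CD, 54% of tested genes passed. Markers higher and lower there were 1 and 4 for hepatocytes, 2 and 0 for cholangiocytes, 2 and 2 for macrophages, 5 and 0 for endothelium, 3 and 1 for stellate cells and 3 and 0 for lymphocytes. Against nonDEN-L-WD, where 49% passed, the counts in that order were 1 and 2, 2 and 0, 2 and 2, 3 and 0, 3 and 0, and 1 and 0. The part of these markers in the members' values was not tested.

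The other genes of the pathway were read in the same fits. For the western diet in uninjected mice, 3 of 15 other glutathione S-transferases were higher and 0 lower by edgeR's adjusted p, with Hpgds (log2 fold change 1.68), the prostaglandin D synthase, and Gstk1 (0.63) leading. The share over all tested genes was 23.2%. Of 13 genes of conjugate export and mercapturate formation 3 were higher, with the exporter Abcc3 at 1.14 and Abcc2 at 0.79. Of 10 NRF2-inducible genes and regulators (Nfe2l2, Keap1 and the genes of the receptors CAR and PXR) 2 were higher, both regulators, Nr1i3 (1.04), which encodes CAR, and Nfe2l2 (0.51), and 0 were lower. Of 15 genes of glutathione supply 0 were higher and 1 was lower, Cbs (−0.51). In the fit without tumor replicate 5, where 28.1% of tested genes passed, the counts were 5 higher and 1 lower for the other glutathione S-transferases, 4 and 1 for export, 2 and 2 for supply, and 3 and 2 for the NRF2-inducible genes and regulators. Of the last, Nqo1 came to pass as higher and Srxn1 (−1.23) and Txnrd1 (−0.49) as lower.

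Between tumors and peritumoral tissue, 4 of the 15 other glutathione S-transferases were higher and 3 lower, where 37.7% of tested genes passed. Gsta1 (log2 fold change 2.37) and Gstp2 (2.24) were the higher ones with the largest change, and Gstk1 (−1.02) and Mgst1 (−0.99), a membrane-bound form, were lower. Of 15 glutathione supply genes 5 were higher, among them Slc7a11 (4.25) and Gclc (0.92), and 6 were lower, among them Gpx1 (−0.88), a peroxidase that uses glutathione, and Cbs (−0.86), which starts the route from homocysteine to cysteine. Without replicate 5, Slc7a11 still passed (1.36), whereas Gsta1 and Gclc did not, and Gpx1 was at −1.15 and Cth, the following enzyme of that route, at −1.13.

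Of the 13 export and mercapturate genes 4 were higher in tumors, including Abcc4 (2.23) and Ggt1 (4.26), and 5 lower, including Nat8 (−1.24), an acetyltransferase that completes mercapturates. Of the 10 NRF2-inducible genes and regulators, the inducible Nqo1 (1.43) and Srxn1 (1.34) were higher, and those lower were the receptor genes Nr1i3 (−1.46) and Nr1i2 (−0.36), which encode CAR and PXR. Without replicate 5, Nqo1 was at 0.50 and Srxn1 at 0.91 and both passed, and Ggt1 and Abcc4 did not pass. Over the lists, leaving it out gave 3 higher and 5 lower for the other glutathione S-transferases, 4 and 8 for supply, 2 and 6 for export and 2 and 3 for the NRF2-inducible genes and regulators (Ugdh added as lower, at −0.64), where 41.3% of tested genes passed.

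How the members varied with each other was described by Pearson r of log2 CPM (counts scaled to library size) over the libraries, with no test, since libraries of a group share its condition. Gstm1 and Gstm3 had r = 0.955 over 25 libraries and 0.916 without tumor replicate 5, and Gsta4 and Gstm1 had 0.921 and 0.840. Reads shared between Gstm1 and Gstm3 enter the first of these values. Gstp1 had r = −0.248 against Gstm1 over 25 libraries, −0.457 without replicate 5 and −0.584 over the 19 libraries that are not tumors. Against Gstm6, another mu gene, its r was 0.443, 0.439 and 0.249 over the same sets.

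**Figure D5:**
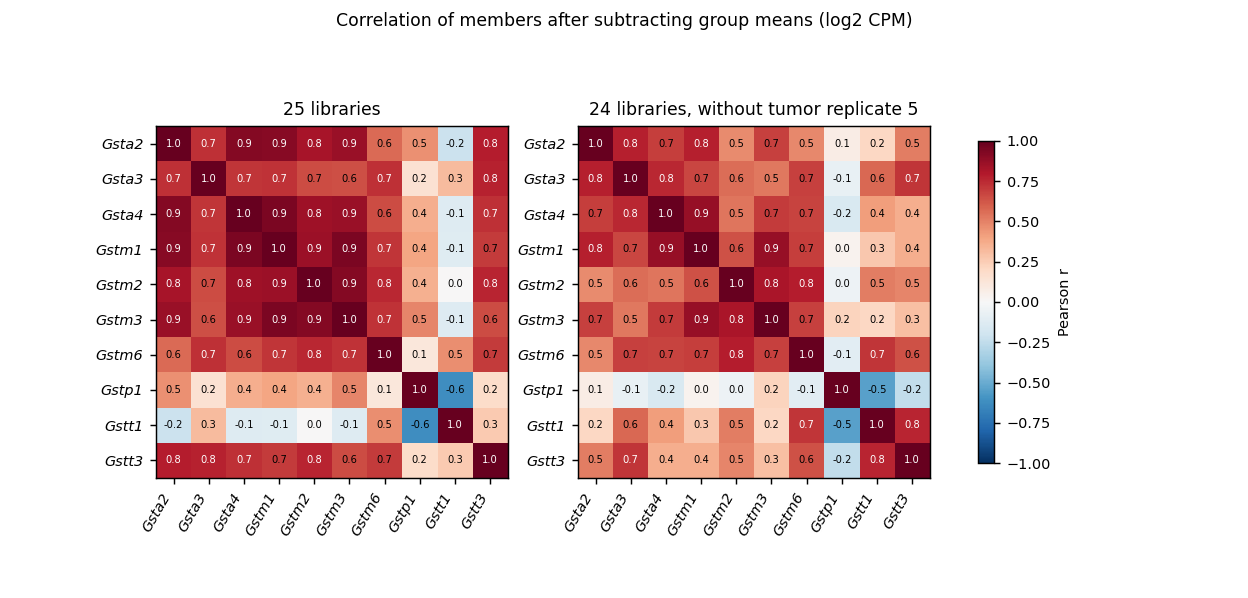
Each cell gives Pearson r between a pair of members after group means were subtracted from log2 CPM, for 25 libraries (left) and for 24 libraries without tumor replicate 5 (right). Gstm1 and Gstm3 reach 0.941 and 0.874, and the cells of Gstp1 with Gstm1 are 0.394 and 0.034.

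The tested genes most like each member, other glutathione S-transferases aside, were named by the highest r over 25 libraries. They were Ugt1a9 for Gsta2 (0.941), Galm for Gsta3 (0.959), Htatip2 for Gsta4 (0.924), Fth1 for both Gstm1 (0.947) and Gstm3 (0.924), Cryl1 for Gstm2 (0.899) and Me1 for Gstm6 (0.910). For Gstp1 it was Rpp40 (0.882), for Gstt1 Scrn2 (0.876) and for Gstt3 Slc28a1 (0.868). Without tumor replicate 5 the leading gene was the same for Gsta2, Gsta3, Gstm1 and Gstp1, with Galm at 0.958 for Gsta3. Ephx1 (0.846) led for Gsta4 and Tkt (0.867) for Gstm3.

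Promoters were read because the members move together in 1 library. RefSeq promoter entries on GRCm38.p6 matched 9 of the 10 members, all but Gsta4, with 13 entries. The 250 bases before each start were searched on both strands for the antioxidant response element core TGACNNNGC, found in 10.2% of all 32851 promoters, and for the AP-1 site TGACTCA, found in 4.46%. The first matched 1 member and the second 1 member, and no match overlapped the other motif. The matched windows are printed with the motif in capitals, since they belong to the pair of members with the clearest group differences:
Gsta3: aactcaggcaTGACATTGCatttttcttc
Gstp1: tccaacgtgtTGAGTCAgcatccgggg

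The Gsta3 window lies at chr1:21240454-21240482 on the plus strand, with the match 121 to 113 bases before the RefSeq start. The Gstp1 window lies at chr19:4037970-4037996 on the minus strand, with the match 74 to 68 bases before the RefSeq start, partly within the gene as GENCODE M21 draws it. A match describes letters in this window only, and no match says nothing about elements elsewhere.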

How the data were processed

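RNA-seq libraries were poly(A)-selected and read single-end by the authors, who ran FastQC, STAR and RSEM on GRCm38 and deposited, per sample, expected counts and TPM and FPKM values. Whether the counting used strand, and the annotation release, are not given in the sources used here. Expected counts were rounded, filtered with filterByExpr (minimum count 10), scaled by TMM and fitted over all 25 libraries with edgeR 4.0.16 (R 4.3.3) by the quasi-likelihood test, with Benjamini-Hochberg adjustment over 15625 genes. Tests were checked on simulated data: of 100 genes changed 3-fold, 83 were recovered for tumors against peritumoral tissue, in a run on 15337 genes, with 4 other calls in the whole run. The simulated data held no library set apart as tumor replicate 5 is, and no change under 3-fold, so recovery in such cases was not tested. DESeq2 1.42.0 and limma 3.58.1 on log2(TPM + 1) were alternatives. DESeq2 gave no adjusted p for Gsta2 and Gsta4 in tumors against peritumoral tissue or nonDEN-L-CD, so it could not call them there. TPM was used for levels between genes and FPKM for 1 alternative. Groups came from the sample labels. Groups share replicate numbers, and the sources used here do not say whether a number marks a shared animal or batch. The members and lists were chosen with earlier results of these data known. Comparisons share groups, so they are not independent. Members were named by symbol. From other lists, up to 4 genes per comparison with the largest log2 fold change among those passing were named. Libraries varied 21530083 to 38074411 in depth.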

Additional observations from a re-analysis of the deposited data

Results flagged for a closer look

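Outlying libraries were looked for in 40 groups of 4 to 8 libraries, 1 per member and group. Members share libraries and some reads, so the groups are not independent and no chance rate can be set against the count. By Dixon's criterion, 10 groups held a library with a large gap from the others. Of these, 7 were the highest tumor, replicate 5, with normalized counts of 10137 for Gsta2, 7082 for Gsta4, 173699 for Gstm1, 4521 for Gstm2, 30748 for Gstm3, 1582 for Gstm6 and 1611 for Gstt3. The other 3 were peritumoral replicate 7, which was lowest for Gsta4 (895) and Gstm1 (20178) and highest for Gstp1 (21854). Gsta3 was also flagged for an interaction of DEN with diet of −0.951 on the log2 scale. Peritumoral tissue stands in for injected liver on the western diet there, so tissue type cannot be told apart from the interaction. It did not pass with limma on log2(TPM + 1) or without nonDEN-L-CD replicate 3.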

How the results depend on the processing

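Refits were counted for the member differences that passed the adjusted p in at least 1 fit, and for a few others named in the text. Over all alternatives, 1367 of these log2 fold changes kept their direction and side of the threshold, 55 came to pass it, 60 no longer passed and 48 changed sign. The 1367 include DESeq2 fits without an adjusted p, whose side of the threshold is not known. The fits without tumor replicate 5 that are given beside the main ones were chosen after seeing the data. So were leaving out tumor replicate 5 and peritumoral replicate 7 together, and adding copies without tumor replicate 5. In the counts of called members (main values in the report), the adjusted p alone gave 1 higher for the diet in uninjected mice, 1 higher for DEN on control diet, 1 lower for peritumoral tissue against nonDEN-L-WD, 1 lower for it against DEN-L-CD, 1 lower for tumors against it, 3 lower for tumors against either uninjected group and 1 lower for the interaction. With only the groups compared, the diet count was 1 higher and the tumor count against nonDEN-L-CD was 0 higher. With limma on log2(TPM + 1), the diet comparison and the tumor comparisons with both uninjected groups gave 0 lower, and tumors against nonDEN-L-CD gave 4 higher, Gsta4 and Gstm2 added. With counts of copies added, tumors gave 1 higher against peritumoral tissue and 1 higher against nonDEN-L-WD (Gsta2 in both). DESeq2 also gave 1 higher against nonDEN-L-WD, but this was Gstm3. With copies added and tumor replicate 5 left out, counts were 1 higher for the diet, 1 higher for DEN on control diet, 2 lower for tumors against nonDEN-L-WD and 1 higher against nonDEN-L-CD. Without tumor replicate 5 and peritumoral replicate 7 together, counts were 1 higher for the diet, 1 lower for peritumoral tissue against DEN-L-CD, 2 lower for tumors against peritumoral tissue, 2 lower against nonDEN-L-WD and 1 higher against nonDEN-L-CD.

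No label says that a replicate number marks a shared animal or batch. Correlations of same-numbered libraries ran from −0.24 to 0.39 over 7 comparisons, and in none did every pair exceed 0.1. As a hint from the data only, 3 of 3 libraries were best with their own number for DEN on control diet (0.05 to 0.31) and 2 of 3 for the diet (−0.11 to 0.39), against 1 of 6 for tumors and peritumoral tissue (−0.23 to 0.34). With the replicate block, 1 member was lower for peritumoral tissue against DEN-L-CD, 1 lower for the interaction and 0 higher for tumors against nonDEN-L-CD, where Gstm1 was at 0.78 (adjusted p = 0.11) and Gstm3 at 1.78 (adjusted p = 0.070). The block moved the count over all genes by less than 1.5 times. It gave tumor minus peritumoral differences of −1.02 for Gsta2, −0.11 for Gstm1, −0.42 for Gstm2, −0.082 for Gstm3 and 0.13 for Gstp1, and −0.44 for Gsta2 against nonDEN-L-WD.

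Leaving out 1 library at a time, counts ranged 0 to 1 higher for the diet (1 without tumor 5), 0 to 1 lower for peritumoral tissue against DEN-L-CD (1 without peritumoral 7), 0 to 1 higher (1 without tumor 3) and 0 to 1 lower (1 without tumor 5) for tumors against peritumoral tissue, and 0 to 1 higher (1 without tumor 2 or 3) and 0 to 2 lower (0 without nonDEN-L-WD 3, 2 without tumor 5) against nonDEN-L-WD. They ranged 1 to 5 higher against nonDEN-L-CD (1 without control 1 or 3 or tumor 5, 5 without tumor 2, 4 without tumor 3) and 0 to 1 lower for the interaction (1 without nonDEN-L-CD 2, nonDEN-L-WD 4, DEN-L-CD 1 or peritumoral 6).

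With 1 library left out, differences of tumors from peritumoral tissue ran from −1.56 to 1.15 for Gsta2, −0.29 to 0.71 for Gsta4, −0.33 to 0.65 for Gstm1, −0.69 to 0.20 for Gstm2, −0.51 to 1.71 for Gstm3 and −0.17 to 0.13 for Gstp1. From nonDEN-L-CD, Gsta2 ran from −0.42 to 2.31, and from nonDEN-L-WD, Gsta2 ran from −0.80 to 1.91, Gstm2 from −0.83 to 0.13 and Gstm3 from −0.13 to 2.30. Reversed values of tumors minus peritumoral tissue without tumor replicate 5 were −1.56 for Gsta2, −0.29 for Gsta4, −0.33 for Gstm1, −0.69 for Gstm2 and −0.51 for Gstm3, with peritumoral replicate 7 also left out −1.64, −0.37, −0.42, −0.75 and −0.61, and with copies added −0.59, −0.29, −0.33, −0.69 and −0.51. Gstp1, near 0, was at 0.12 with limma and 0.11 with copies added. With limma Gsta2 was at −0.62 and Gstm2 at −0.11, and without peritumoral replicate 2 Gstm2 was at −0.004. Against nonDEN-L-CD, Gsta2 was at −0.42 both without tumor replicate 5 and without both libraries, and Gstm6 at 0.067 with limma. Against nonDEN-L-WD, Gsta2 was at −0.80 and Gstm3 at −0.13 without either set (Gstm3 also with copies added), Gstp1 at 0.053 and Gstm2 at 0.0064 with limma, and Gstm2 ranged from 0.02 to 0.13 in 6 leave-one-out fits. The cause was not tested. Over all genes, limma called 300 genes for the diet against 825, and leaving out nonDEN-L-WD replicate 4 gave 201 against 432 for peritumoral tissue against nonDEN-L-WD.

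In FPKM the summed level of the members was 3100 in nonDEN-L-CD, 3580 in DEN-L-CD and 3596 in DEN-PT-WD, and the TPM sum of every listed glutathione S-transferase gene was 11371 in nonDEN-L-CD, 14051 on the western diet without DEN, 13249 in DEN-L-CD, 15014 in peritumoral tissue and 12657 in tumors. Tumor replicate 5 and the few libraries per group limit these comparisons, and no fit at matched depth was made.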

Other observations

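Of the other glutathione S-transferases, Hpgds, the prostaglandin D synthase, was higher than in nonDEN-L-CD in DEN-L-CD (log2 fold change 1.31, edgeR adjusted p = 0.04) as well as in nonDEN-L-WD, and it was higher again in peritumoral tissue compared with DEN-L-CD (1.29, adjusted p = 0.016). Gstk1, the kappa-class form, differed by −1.50 (log2) between tumors and nonDEN-L-WD, and by −1.61 without tumor replicate 5. In the same comparison Slc7a11 was higher by 8.66, and by 5.77 without that library. For DEN on the control diet, Srxn1 was lower (−1.48, adjusted p = 0.022). The summed TPM of every listed glutathione S-transferase averaged 11371 in nonDEN-L-CD and 15014 in DEN-PT-WD, and 9552 in the tumors without replicate 5.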
